A study of Mus musculus with 6 samples.

Results

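The transcription factor NRF2 (gene Nfe2l2), its repressor KEAP1 and 8 of the enzymes and transporters that NRF2 is known to control were examined in MYC-driven mouse liver tumors after inhibition of the arginine methyltransferase PRMT5. The 10 genes (Nfe2l2, Keap1, Nqo1, Gclc, Gclm, Txnrd1, Srxn1, Hmox1, Slc7a11 and G6pdx) were picked by gene symbol from the 47643 genes of the deposited table, and all 10 passed the filter on low counts that left 17012 genes. In unstressed cells KEAP1 holds NRF2 in the cytoplasm and delivers it to a CUL3 ubiquitin ligase for degradation. Oxidants and electrophiles modify cysteines of KEAP1, and NRF2 then accumulates, pairs with a small MAF protein in the nucleus and binds antioxidant response elements. Its targets make and recycle glutathione and thioredoxin, supply NADPH and detoxify quinones and heme, and in liver they are part of the defence of hepatocytes against drugs and bile acids. Because NRF2 is regulated mainly through its stability, the level of its own transcript says little about its activity, and the transcripts of its targets are the usual readout.

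All libraries came from FVB/N mice with the LAP-tTA and tetO-MYC transgenes. In this system a hepatocyte-active promoter drives a transactivator that turns on MYC when doxycycline is absent. The mice drank doxycycline at 100 mg/L up to the age of 4 weeks, carried active MYC for 8 weeks, and then received vehicle (3 libraries) or GSK3326595, a PRMT5 inhibitor, at 50 mg/kg/day (3 libraries) for 2 weeks. Both groups therefore consisted of tumors with MYC on; liver without the active transgene was not analysed here. The labels number the replicates without saying that each is a separate animal, so p-values here reflect only how much these samples varied, which may be technical.

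Library totals ran from 25814339 to 33621083 expected counts, and levels below are counts per 1000000 counted (CPM) after TMM scaling. Of 12 hepatocyte markers 11 were found in the table. The other, transferrin, was sought as Tf, which is not the symbol of the mouse gene. All 11 were detected in every library. They summed to 36105, 41424 and 19072 CPM in vehicle against 29830, 34213 and 10649 CPM in GSK3326595. In GSK3326595 replicate 3, 9 of the 11 were lowest, where 20.5% of all genes tested were. The part of this low in the values of the NRF2 genes was not tested. The libraries did not sort cleanly by treatment. GSK3326595 replicate 2 lay at 103.1 on the first principal component (38.1% of the variance) and the other 5 libraries between -50.2 and 9.37, while vehicle replicate 3 had a Pearson r of log2 CPM over genes of 0.973 with GSK3326595 replicate 3, 0.967 with vehicle replicate 1 and 0.951 with vehicle replicate 2. Xist lay between 17 and 27.4 CPM in the vehicle libraries and between 0.433 and 3.26 CPM in the GSK3326595 libraries, with no overlap. The labels do not state the sex of the mice, so treatment and a difference in sex between the groups cannot be told apart in any comparison below, X-linked G6pdx and the male-biased liver genes included. Prmt5, whose product is inhibited rather than removed, averaged 92.4 ± 39.4 CPM in GSK3326595 and 67.9 ± 18 CPM in vehicle (SD, n = 3 each; edgeR adjusted p = 0.753).

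None of the 10 NRF2 pathway genes passed the test for a difference between GSK3326595 and vehicle. By edgeR's quasi-likelihood test with Benjamini-Hochberg adjustment, 0 of the 10 genes passed an adjusted p of 0.05, where 0% of all genes did, and 0 of 10 had an unadjusted p under 0.05, where 9.26% of all genes did. Of those genes 927 were higher and 648 lower, or 1142 and 430 when counts were scaled to library totals alone. DESeq2 called 0 of 10 after adjustment, against 1.69% of all genes, and gave 1 gene, Gclc, an unadjusted p under 0.05. By limma-voom 0 of 10 passed with or without adjustment. Of the 10 log2 differences (GSK3326595 minus vehicle) 9 were above 0, where 53.1% of all genes tested were, and their median was 0.26 against 0.03 over all genes. The groups did not overlap in 1 of the 10 genes, Nfe2l2, which was higher; over all genes this share was 14.4%, with 6.72% higher and 7.66% lower. The summed level of the 10 genes was 526, 530 and 531 CPM in vehicle tumors against 629, 695 and 598 CPM in GSK3326595 tumors. This description is dominated by the most abundant genes and by single-library highs, and was not tested. Hmox1 made up 131 CPM of the sum in GSK3326595 replicate 1, against 23.8 to 49.2 CPM in vehicle. Gclc made up 149 CPM in GSK3326595 replicate 2, against 41.3 to 57 CPM in vehicle.

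**Figure D1:**
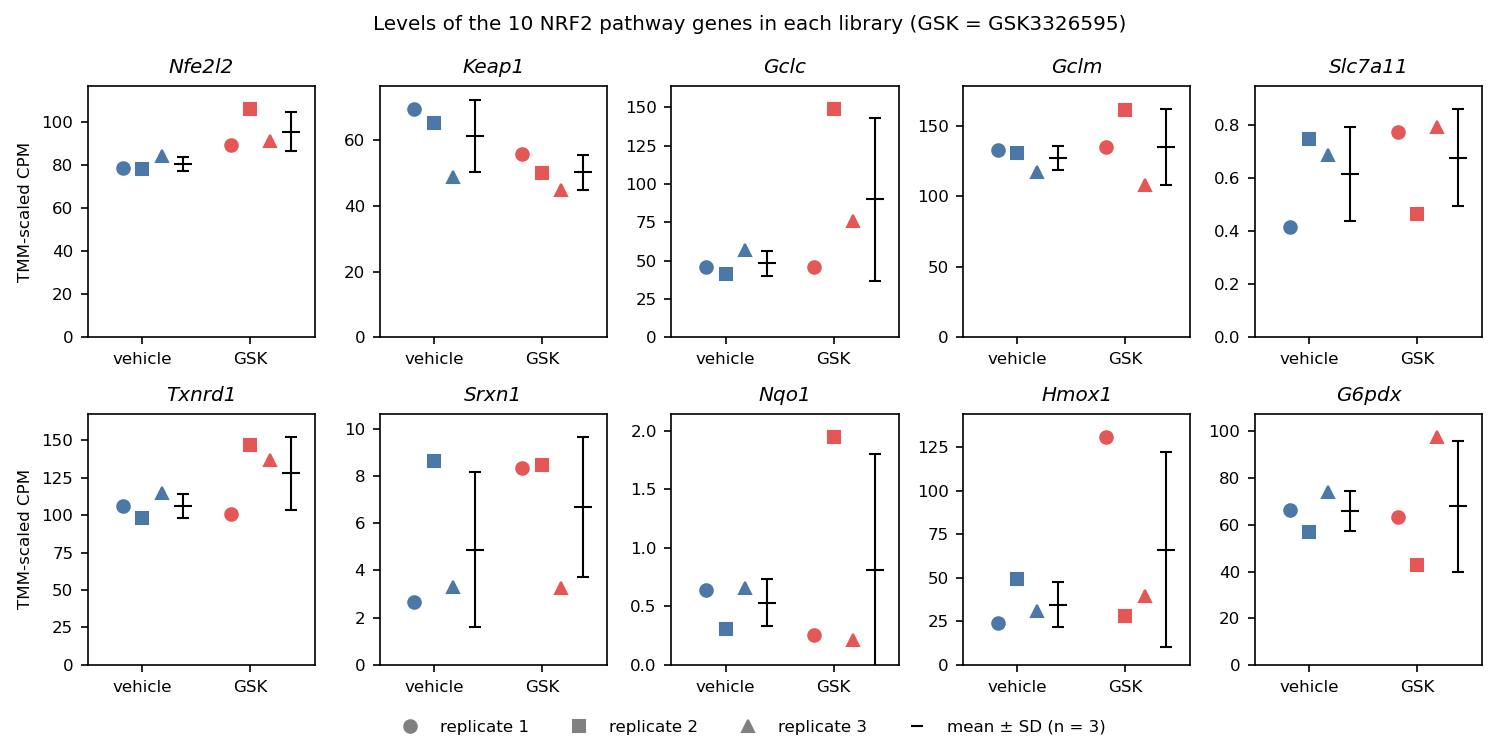
Level of each of the 10 genes in TMM-scaled CPM (y axis, linear, from 0) in the 3 vehicle and 3 GSK3326595 libraries (x axis), with symbols for replicate numbers and black bars for the mean ± SD (n = 3; the bar of Nqo1 in GSK3326595 is clipped at 0). Nfe2l2 is the gene whose groups do not overlap, Gclc and Nqo1 stand high in GSK3326595 replicate 2, and Hmox1 stands high in GSK3326595 replicate 1.

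Nfe2l2 (ENSMUSG00000015839.6; mm10 chromosome 2, 75675513 to 75704641, minus strand) encodes NRF2. It had 78.4, 78.3 and 84 CPM in vehicle tumors against 89.2, 106 and 90.9 CPM in GSK3326595 tumors. Every GSK3326595 library was above every vehicle library, also when counts were scaled to library totals alone. The difference was small and did not pass the test, with a log2 difference of 0.25 ± 0.15 (SE), or 1.19-fold (edgeR adjusted p = 0.65). Among the 10 genes its levels varied least, with a 1.35-fold range over the 6 libraries.

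Keap1 (ENSMUSG00000003308.14; chromosome 9, 21229730 to 21239361, minus strand), the adaptor that targets NRF2 for degradation, had the only log2 difference below 0 of the 10. It had 69.6, 65.3 and 48.9 CPM in vehicle against 55.7, 49.9 and 45 CPM in GSK3326595. The groups overlapped, as vehicle replicate 3 lay among the GSK3326595 libraries. Its log2 difference was -0.29 ± 0.19 (edgeR adjusted p = 0.685). An antisense gene, Gm16754, overlaps exons of Keap1 and had 3.16 to 7.04 CPM, and no source used here states whether strand entered the counting, so reads of the pair may not be separated.

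The core of the antioxidant response element, TGACNNNGC, was searched on both strands of RefSeq promoter windows (GRCm38.p6) of 300 bases, 250 before and 50 from the annotated start onward. A window was found for 8 of the 10 genes, and 5 of these 8 (62.5%) held the motif in at least 1 window, as did 14% of the 27025 genes with windows. By windows these shares were 5 of 10 (50%) and 12.4% of 32851. None of the 5 matches contained TGACTCA, the AP-1 site that TGACNNNGC can overlap. Keap1, Nqo1 and Slc7a11 had windows without a match, and Hmox1 and Gclc had no window. The genes were listed for their place in the NRF2 pathway, so the share with a match is not independent of that choice. The matches are shown as a feature of some of the genes apart from their expression. Each match is printed 5′ to 3′ on the strand that reads TGACNNNGC, with the motif in capitals and up to 10 flanking bases on each side. The matches lay 232 bases upstream of the start for Nfe2l2 (same strand as the gene), 126 upstream for Gclm, 49 upstream for G6pdx, 84 upstream of an internal start for Txnrd1, and 28 downstream of the start for Srxn1 (the last 4 on the strand opposite to the gene).
Nfe2l2, chr2:75704885-75704913: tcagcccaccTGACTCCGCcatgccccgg
Gclm, chr3:122245413-122245441: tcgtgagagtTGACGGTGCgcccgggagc
G6pdx, chrX:74428919-74428947: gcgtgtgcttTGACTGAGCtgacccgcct
Txnrd1, chr10:82859104-82859132: cgtgtcagaaTGACAAAGCaaaaatccag
Srxn1, chr2:152105542-152105570: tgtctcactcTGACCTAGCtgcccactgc

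The 250 bases before the Nfe2l2 start are given whole, since it was the gene whose groups did not overlap. That separation does not set the gene apart. It occurred in 14.4% of all genes tested, and Nfe2l2 did not pass the test (edgeR adjusted p = 0.65). The stretch is chr2:75704664-75704913 on the minus strand, read 5′ to 3′ toward the start, with the motif in capitals.
Nfe2l2 promoter: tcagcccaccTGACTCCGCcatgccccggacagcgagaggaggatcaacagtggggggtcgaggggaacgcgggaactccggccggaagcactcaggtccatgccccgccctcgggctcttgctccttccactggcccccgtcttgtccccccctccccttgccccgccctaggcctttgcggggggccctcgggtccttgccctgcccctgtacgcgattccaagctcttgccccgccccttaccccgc
Of the genes with a match, Nfe2l2, Gclm, G6pdx, Txnrd1 and Srxn1 had log2 differences of 0.25, 0.08, 0.04, 0.27 and 0.46. Nqo1, Slc7a11 and Keap1, with a window but no match, had 0.60, 0.13 and -0.29, so the ranges overlapped. Bases more than 250 before the start were not searched, so a gene without a match here may hold the element farther away. A match is a description of the letters, and its occupancy by NRF2 was not measured here.

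The glutathione genes of the set were led by Gclc. Gclc (ENSMUSG00000032350.8; chromosome 9, 77754535 to 77794485, plus strand) encodes the catalytic subunit of glutamate-cysteine ligase, the rate-limiting enzyme of glutathione synthesis. It had 45.9, 41.3 and 57 CPM in vehicle tumors against 45.5, 149 and 75.6 CPM in GSK3326595 tumors. GSK3326595 replicates 2 and 3 were above all vehicle libraries, while replicate 1 lay among them. The log2 difference was 0.90 ± 0.42 (edgeR adjusted p = 0.56), the smallest p-value of the 10 genes. It was 0.39 ± 0.28 without GSK3326595 replicate 2 and 1.22 ± 0.32 without GSK3326595 replicate 1 (edgeR adjusted p = 0.689 and 0.456).

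Gclm (ENSMUSG00000028124.15; chromosome 3, 122245557 to 122270732, plus strand), the modifier subunit of the same enzyme, had close mean levels in both groups. It had 133, 131 and 117 CPM in vehicle against 135, 161 and 108 CPM in GSK3326595. The GSK3326595 libraries held both its highest and its lowest value. Its log2 difference was 0.08 ± 0.19 (edgeR adjusted p = 0.943) and turned to -0.02 ± 0.17 without GSK3326595 replicate 2. The pseudogene Gm6061 and the opposite-strand transcript Gm17494 overlap its exons, with at most 0.748 and 17.1 CPM.

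Slc7a11 (ENSMUSG00000027737.10; chromosome 3, 49892526 to 50443614, minus strand), the cystine import subunit of system xc-, had few reads. It had 13, 22 and 23 reads in vehicle tumors against 24, 15 and 22 reads in GSK3326595 tumors, or 0.414 to 0.794 CPM in all. On the log2 scale the difference was 0.13 ± 0.41 (edgeR adjusted p = 0.957), so the error exceeded the difference.

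Of the thioredoxin arm, Txnrd1 (ENSMUSG00000020250.9; chromosome 10, 82833951 to 82897712, plus strand) encodes the cytosolic thioredoxin reductase. It had 106, 98.4 and 115 CPM in vehicle against 101, 147 and 137 CPM in GSK3326595. As for Gclc, GSK3326595 replicates 2 and 3 were above all vehicle libraries and replicate 1 was among them. The log2 difference was 0.27 ± 0.19 (edgeR adjusted p = 0.707), and 0.42 ± 0.16 without GSK3326595 replicate 1 (edgeR adjusted p = 0.467).

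Srxn1 (ENSMUSG00000032802.8; chromosome 2, 152105516 to 152111376, plus strand) encodes sulfiredoxin, which repairs overoxidized peroxiredoxins. It had 2.68, 8.64 and 3.28 CPM in vehicle tumors against 8.35, 8.46 and 3.25 CPM in GSK3326595 tumors. The values fell near 3 CPM in 3 libraries and above 8 CPM in the other 3, and each kind occurred in both groups. Srxn1 differed on the log2 scale by 0.46 ± 0.57 (edgeR adjusted p = 0.855), and 1.16 ± 0.51 without vehicle replicate 2.

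Nqo1 (ENSMUSG00000003849.8; chromosome 8, 107388225 to 107403206, minus strand), the quinone reductase that is a standard reporter of NRF2 activity, was scarce in these tumors. It had 20, 9 and 22 reads in vehicle tumors against 8, 63 and 6 reads in GSK3326595 tumors. In CPM these were 0.637, 0.306 and 0.656 against 0.258, 1.95 and 0.216. GSK3326595 replicate 2 held the highest value and the other GSK3326595 libraries were the 2 lowest of all 6. The log2 difference of 0.60 ± 0.89 (edgeR adjusted p = 0.891) turned to -1.11 ± 0.55 without that library (edgeR adjusted p = 0.55), and it was -0.04 by limma-voom. The 5 genes with the smallest root mean square distance from Nqo1 in log2 CPM centred on each gene's mean over the 6 libraries were Slc10a5 (0.18), Gm44002 (0.24), Fam184b (0.26), Mtl5 (0.30) and Il1rap (0.30), a description with no test. Each of the 5 was highest in the same library, Slc10a5 with 46 CPM there against 6.35 to 15 CPM elsewhere.

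**Figure D2:**
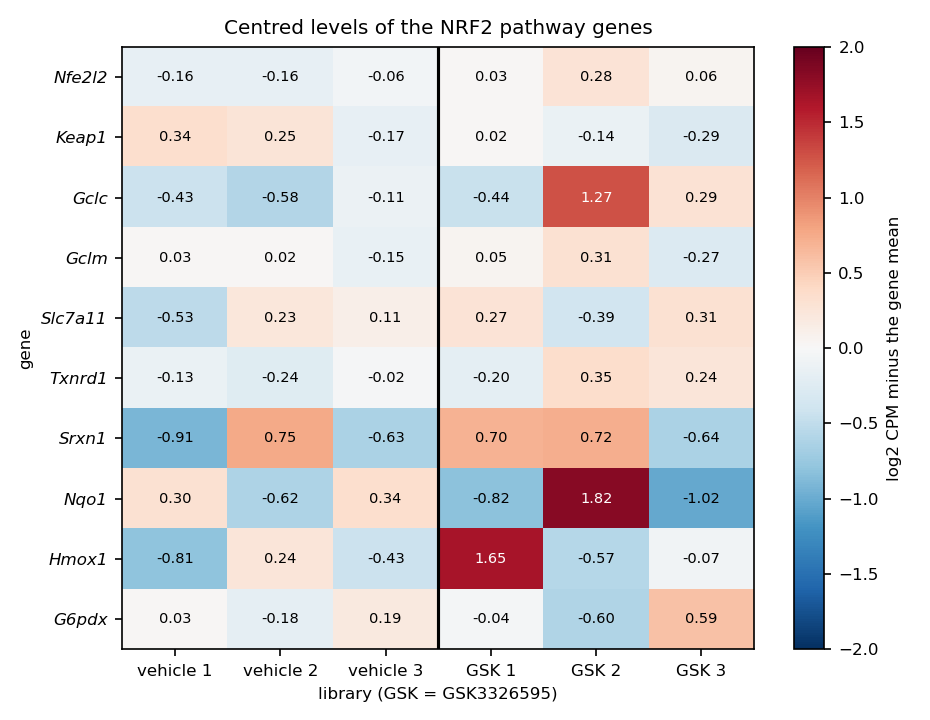
Heat map of the 10 genes (rows) in the 6 libraries (columns), colored and labelled by log2 CPM (prior count 2) minus the gene's mean over the 6 libraries. The largest deviations are single cells: 1.82 for Nqo1 and 1.27 for Gclc in GSK3326595 replicate 2, and 1.65 for Hmox1 in GSK3326595 replicate 1.

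Hmox1 (ENSMUSG00000005413.7; chromosome 8, 75093621 to 75100589, plus strand) encodes heme oxygenase 1, which breaks down heme and in normal liver is expressed mainly by macrophages that clear red cells. It had 23.8, 49.2 and 30.9 CPM in vehicle tumors against 131, 28.1 and 39.7 CPM in GSK3326595 tumors. GSK3326595 replicate 1 stood alone, and the other GSK3326595 libraries lay inside the range of the vehicle libraries. Hmox1 differed on the log2 scale by 0.93 ± 0.60 (edgeR adjusted p = 0.679), and -0.03 ± 0.36 without that library. Macrophage markers were highest in the same library in 10 of 14 genes, where 21.1% of all genes tested were, and the other 4 were highest in vehicle replicate 3. Their summed level was 767 to 1162 CPM in vehicle, 2527 CPM in GSK3326595 replicate 1 and 884 and 1002 CPM in the other GSK3326595 libraries. None of the 14 was at 0 in all libraries; C1qb, a complement chain made by macrophages, had 273 CPM in GSK3326595 replicate 1 and 69.7 to 105 CPM elsewhere. In contrast 3 markers of resident liver macrophages were lowest in that library. Clec4f had 0.129 CPM there and 0.17 to 24.3 CPM elsewhere, Vsig4 0.129 and 1.33 to 11 CPM, and Marco 0.645 and 0.68 to 14 CPM. Vehicle replicate 2 was nearly as low for Clec4f and Marco, with 5 and 20 reads against 4 and 20 in GSK3326595 replicate 1. Other markers of resident liver macrophages were highest there. Timd4 had 36.2 CPM in that library and 10 to 18.7 CPM elsewhere, and Cd5l 611 and 89.9 to 255 CPM. C1qb, Clec4f, Vsig4, Marco, Timd4 and Cd5l were chosen after their values were seen. Of the 14 markers 11 had log2 differences above 0 (median 0.52), where 53.1% of all genes tested did. By edgeR 0 of the 14 had an unadjusted p under 0.05, where 9.26% of all genes did. In bulk tissue, more cells of a type and more RNA per cell cannot be told apart, and the part of macrophages in the Hmox1 values was not tested.

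G6pdx (ENSMUSG00000031400.10; chromosome X, 74409483 to 74429194, minus strand) encodes glucose-6-phosphate dehydrogenase, the entry enzyme of the pentose phosphate pathway and a source of NADPH. It had 66.2, 57.1 and 74.1 CPM in vehicle against 63.2, 42.6 and 97.8 CPM in GSK3326595. Unlike Gclc, Gclm, Txnrd1 and Nqo1, it was lowest in GSK3326595 replicate 2, and it was highest in replicate 3. The log2 difference was 0.04 ± 0.31 (edgeR adjusted p = 0.98), and -0.30 without GSK3326595 replicate 3. Exons of Ikbkg, which had 36.9 to 65.4 CPM, overlap G6pdx on the other strand, so reads of this pair may not be separated either. The intronless copy of G6pdx, G6pd2, is listed at 0 in every library.

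Levels can be set between genes only per length, here as CPM per kilobase of annotated exons over all 6 libraries. Hmox1 was first with 28.8 ± 23.1 (SD, n = 6), followed by Nfe2l2 (23.1 ± 2.72), G6pdx (21.7 ± 6), Gclm (20.8 ± 2.92), Gclc (18.3 ± 10.9) and Txnrd1 (16.5 ± 2.87). The ranges of these 6 genes overlapped from each to the next, so neighbours in this order are not resolved, although Nfe2l2 lay above Txnrd1 in every library. Keap1 (11.9 ± 2.09) overlapped with Txnrd1 in range. Srxn1 (2.05 ± 1.06) lay below Keap1 in every library, its range overlapped that of Nqo1 (0.432 ± 0.423), and Slc7a11 was last with 0.0465 ± 0.0119, below the range of Nqo1. The exon length is the union over all transcripts, 13.9 kilobases for Slc7a11 and 1.55 for Nqo1, so a gene with long rarely used exons is placed too low.

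Single GSK3326595 libraries set several of these differences. Of the 10 genes 5 (Nfe2l2, Gclc, Gclm, Txnrd1 and Nqo1) were highest in GSK3326595 replicate 2, the library that stood apart on the first principal component, where 22% of all genes tested were highest in it. Beside these, 15 genes with male-biased expression in liver summed to 1905 CPM in GSK3326595 replicate 2. Their sum was 48.5 to 173 CPM in vehicle and 118 and 193 CPM in the other GSK3326595 libraries. Of these genes 10 were tested, and all 10 had log2 differences above 0 (median 2.28), where 53.1% of all genes tested did. By edgeR 4 were higher at an unadjusted p under 0.05 (5.45% of all genes) and 0 passed after adjustment. The groups were apart in 0 of the 10 (14.4% of all genes). In GSK3326595 replicate 2 catalase (Cat) had 1171 CPM, against 258 to 379 CPM elsewhere. The part of these features of the library in the values of the NRF2 genes was not tested. Without it the median log2 difference of the 10 genes was 0.25, and over all left-out libraries it ran from 0.18 to 0.29. The number of genes with an unadjusted p under 0.05 by edgeR was 2 without GSK3326595 replicate 1 (Gclc and Txnrd1), 1 without GSK3326595 replicate 2 (Hmox1) and 0 without any other library.

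**Figure D3:**
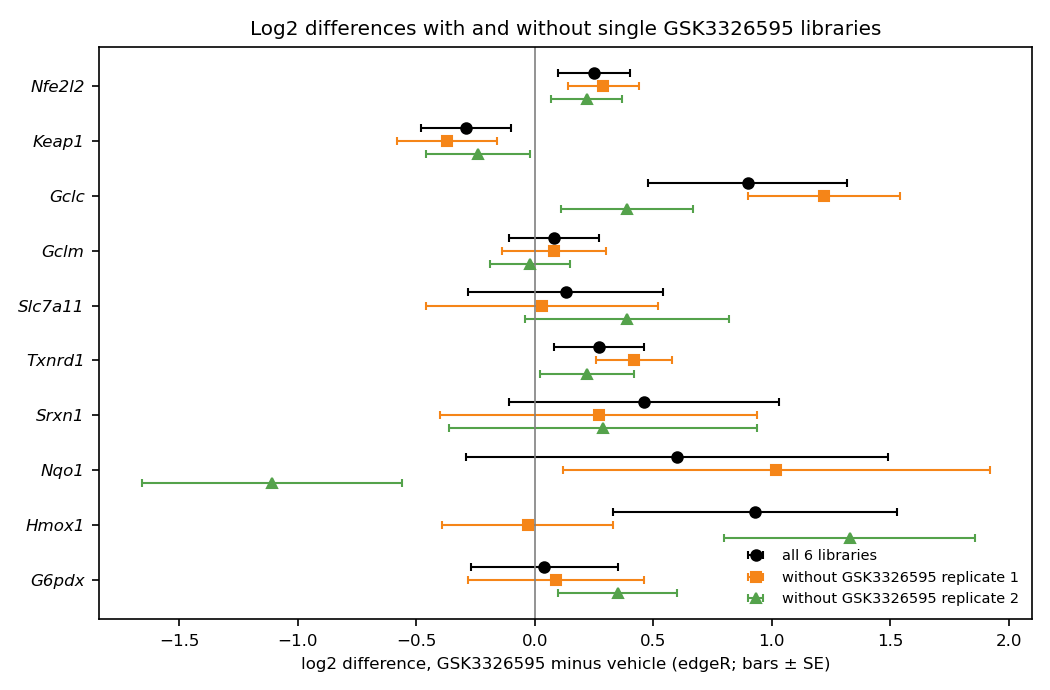
Log2 difference of each gene (x axis, GSK3326595 minus vehicle, edgeR, bars ± SE) with all 6 libraries and without GSK3326595 replicate 1 or 2. Hmox1 moves from 0.93 to -0.03 without replicate 1, Nqo1 from 0.60 to -1.11 and Gclc from 0.90 to 0.39 without replicate 2, while Nfe2l2 stays between 0.22 and 0.29.

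**Figure D4:**
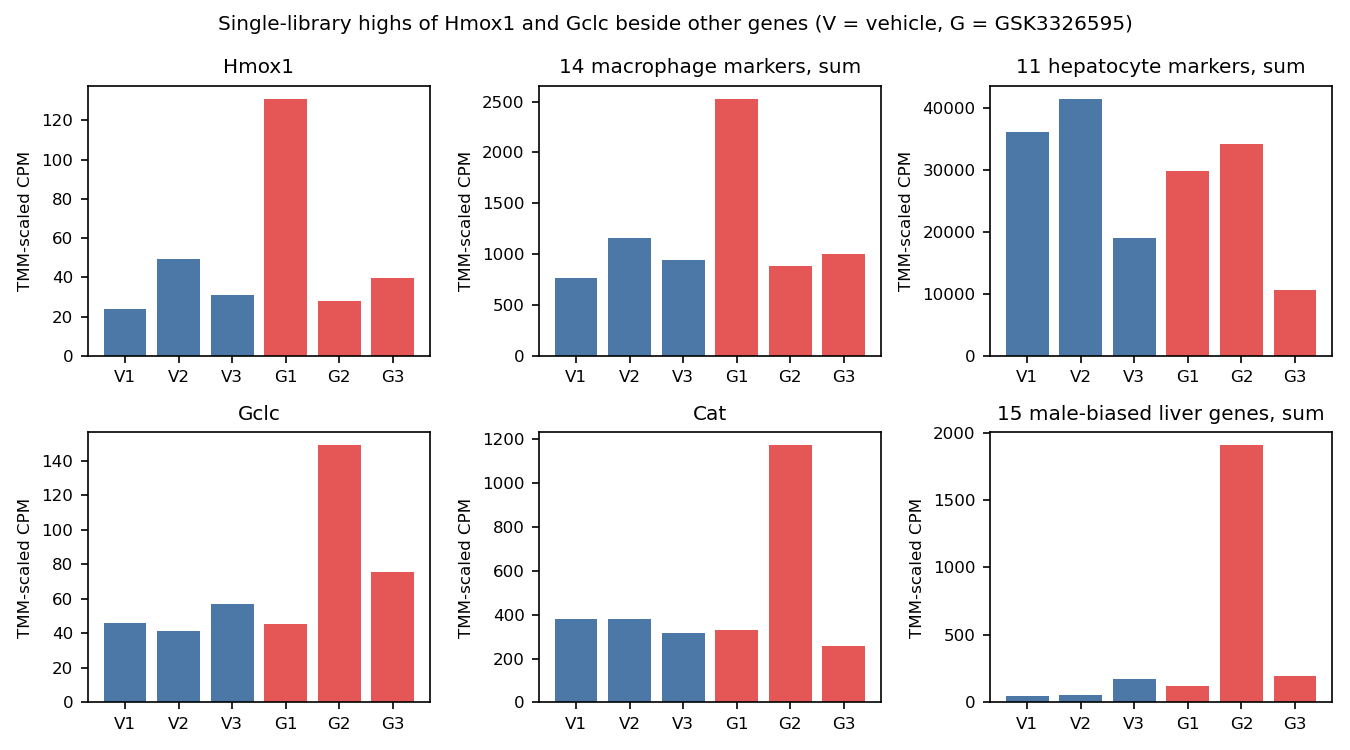
Bars give the TMM-scaled CPM (y axes, linear, from 0) in each library of Hmox1, Gclc and Cat and of the summed macrophage, hepatocyte and male-biased gene lists. Hmox1 and the macrophage sum are highest in GSK3326595 replicate 1 (131 and 2527 CPM), and Gclc, Cat and the male-biased sum in GSK3326595 replicate 2 (149, 1171 and 1905 CPM).

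Among the genes whose products act with or on NRF2, the smallest p belonged to a small MAF partner, Maff. Of 16 such regulators, all tested, 0 passed edgeR's adjusted threshold, 1 was higher and 2 were lower at an unadjusted p under 0.05 (5.45% and 3.81% of all genes), and the median log2 difference was -0.16, or -0.03 without GSK3326595 replicate 2. The number lower was 1 without vehicle replicate 1, vehicle replicate 2 or GSK3326595 replicate 3, and the number higher 0 without vehicle replicate 1. Maff, a small MAF protein that is itself inducible by stress, had 55.4, 60 and 19 CPM in vehicle tumors against 16.8, 5.09 and 10.1 CPM in GSK3326595 tumors. The groups did not overlap, but vehicle replicate 3 lay closer to the GSK3326595 libraries than to the other vehicle libraries. Its log2 difference was -2.07 ± 0.58 (edgeR adjusted p = 0.485), and DESeq2 called Maff lower (adjusted p = 0.0294). Mafg, its relative, had 102, 112 and 57 against 49.8, 60.9 and 35.7 CPM (log2 difference -0.89 ± 0.32, edgeR adjusted p = 0.522). Its groups overlapped, since vehicle replicate 3 lay below GSK3326595 replicate 2. Without vehicle replicate 1 or 2 the log2 difference of Maff was -1.89 or -1.80 and that of Mafg -0.80 or -0.71.

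The repressor genes differed in direction. Bach2, a BACH family repressor best known in lymphocytes, had 0.924, 1.02 and 1.34 CPM in vehicle against 4.55, 5.05 and 1.3 CPM in GSK3326595 (log2 difference 1.73 ± 0.54, edgeR adjusted p = 0.504). GSK3326595 replicate 3 was within the vehicle range. The summed level of 12 T cell markers was 5.73 to 8.23 CPM in vehicle against 30.8, 36.5 and 17 CPM in GSK3326595, and its part in the Bach2 values was not tested. Bach1, which competes with NRF2 at antioxidant response elements and represses Hmox1, had a log2 difference of -0.32 ± 0.29, and Cul3, the ligase scaffold used by KEAP1, of -0.11 ± 0.16 (edgeR adjusted p = 0.78 and 0.892). Gsk3b, a kinase that marks NRF2 for degradation independently of KEAP1, differed by 0.28 ± 0.19, and Sqstm1, which binds KEAP1 and is also an NRF2 target, by -0.39 ± 0.29 (edgeR adjusted p = 0.687 and 0.722). Bach1, Cul3 and Sqstm1 are named for their place in the pathway after their values were seen.

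Among 38 further NRF2 targets, all tested, 33 had log2 differences above 0, with a median of 0.54, where 53.1% of all genes were above 0. By edgeR 0 passed the adjusted threshold, while 7 were higher and 1 was lower at an unadjusted p under 0.05 (5.45% and 3.81% of all genes). DESeq2 called 1 higher and 1 lower (1.1% and 0.591% of all genes). GSK3326595 replicate 2 weighed on this list: 25 of the 38 were highest in it, where 22% of all genes tested were. Without that library the median was 0.08, with 2 higher and 6 lower at an unadjusted p under 0.05 by edgeR. Leaving out vehicle replicate 1 or 2 gave 1 or 2 higher, and leaving out GSK3326595 replicate 3 gave 14.

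Me1, the cytosolic malic enzyme that makes NADPH and is also a lipogenic gene, had 4.08, 4.93 and 3.58 CPM in vehicle tumors against 26.3, 115 and 15.2 CPM in GSK3326595 tumors. The groups were well apart, with a log2 difference of 3.63 ± 0.79 (edgeR adjusted p = 0.455; DESeq2 adjusted p = 0.000101). It was 2.34 without GSK3326595 replicate 2. Ephx1, microsomal epoxide hydrolase, had 14.1, 22.6 and 20.8 against 38.4, 158 and 27.6 CPM (log2 difference 1.96 ± 0.67, edgeR adjusted p = 0.522), and 0.83 without that library. Abcc3, an efflux pump for bile acids and conjugates, had 29.4, 46.4 and 58.9 against 112, 147 and 54.5 CPM (1.22 ± 0.41, edgeR adjusted p = 0.522). Its groups overlapped, because GSK3326595 replicate 3 lay below vehicle replicate 3.

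Osgin1, an oxidative stress induced growth inhibitor gene, went the other way. It had 65.2, 70.3 and 28.8 CPM in vehicle tumors against 17.1, 16.4 and 8.87 CPM in GSK3326595 tumors, a log2 difference of -1.95 ± 0.42 (edgeR adjusted p = 0.455; DESeq2 adjusted p = 0.00319). All GSK3326595 libraries were below all vehicle libraries, and vehicle replicate 3 was again the lowest of its group. Over the left-out libraries its log2 difference ran from -2.23 to -1.69.

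**Figure D5:**
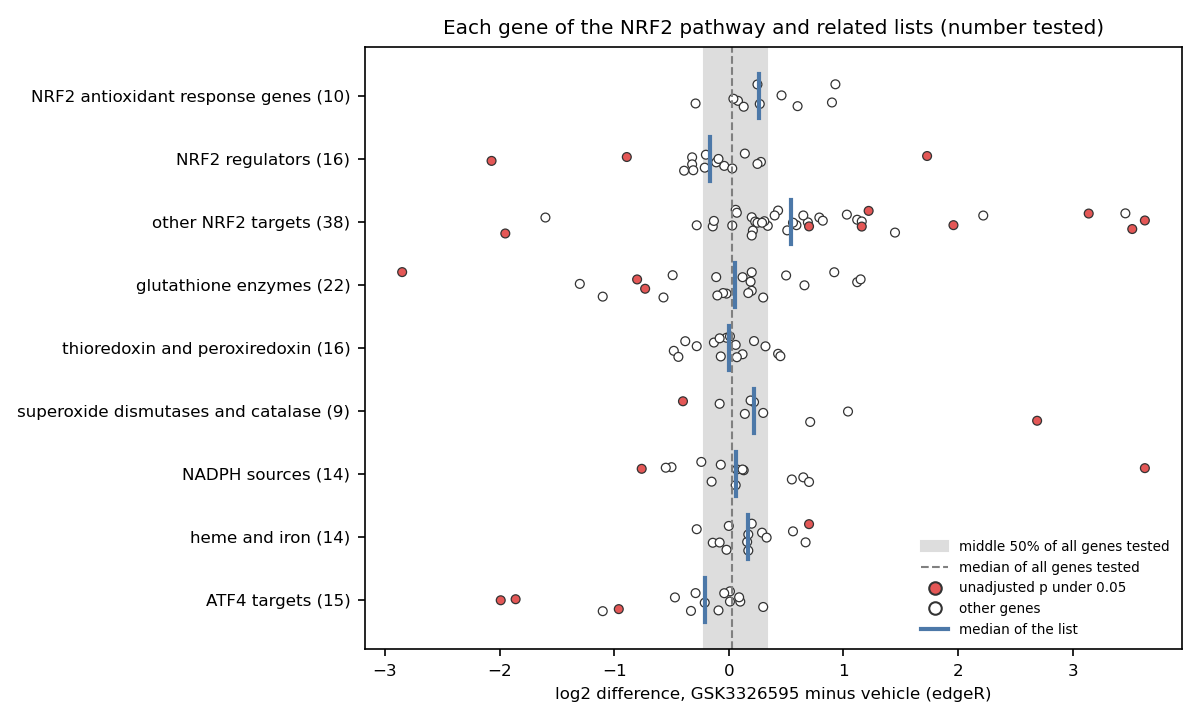
Each point is 1 gene, placed by its log2 difference (x axis, edgeR, GSK3326595 minus vehicle) in its list (rows, with the number of genes tested), filled where the unadjusted p was under 0.05; blue bars are list medians and the gray band spans the middle 50% of all genes (-0.22 to 0.33). The 10 NRF2 genes lie between -0.29 and 0.93, Osgin1 and Maff near -2, and Me1 at 3.63.

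The enzymes of the wider glutathione system were split, with 11 of 22 tested genes above 0 and 11 below (median 0.05). By edgeR 0 passed after adjustment, and 3 were lower and 0 higher at an unadjusted p under 0.05, where 3.81% and 5.45% of all genes were. Ggt6, a gamma-glutamyltransferase family member, had 23.7, 20.8 and 17 CPM in vehicle against 12.8, 13 and 11.3 CPM in GSK3326595, with no overlap (log2 difference -0.73 ± 0.21, edgeR adjusted p = 0.491). Cbs, which directs homocysteine toward cysteine and so toward glutathione, had 206, 208 and 117 against 115, 115 and 75.2 CPM (-0.80 ± 0.29, edgeR adjusted p = 0.522). Gpx3, the secreted glutathione peroxidase, had 156, 291 and 22 against 43.9, 7.38 and 13.6 CPM (-2.85 ± 1.02, edgeR adjusted p = 0.522), where the groups overlapped through vehicle replicate 3. Ggct, which degrades gamma-glutamyl peptides, differed by 1.15 ± 0.50 (edgeR adjusted p = 0.549) and by 0.47 without GSK3326595 replicate 2.

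Thioredoxins, peroxiredoxins and sestrins lay close to 0, with 8 of 16 above and 8 below. By edgeR 0 of the 16 had an unadjusted p under 0.05, where 9.26% of all genes did. Prdx1, an abundant cytosolic peroxiredoxin, had 431, 366 and 612 CPM in vehicle against 674, 657 and 565 CPM in GSK3326595 (log2 difference 0.43 ± 0.24, edgeR adjusted p = 0.631). Prdx4 of the endoplasmic reticulum differed by -0.44 ± 0.27, Sesn3 by 0.45 ± 0.27 and Sesn1 by -0.28 ± 0.21 (edgeR adjusted p = 0.653, 0.656 and 0.719). Of 9 superoxide dismutases, catalase and related genes, 7 had log2 differences above 0, where 53.1% of all genes tested did. Also 7 of the 9 were highest in GSK3326595 replicate 2, where 22% of all genes tested were. Catalase differed by 0.71 ± 0.57 and Msrb1, a methionine sulfoxide reductase, by 1.04 ± 0.69 with all libraries, and by -0.24 and -0.25 without that library. Msrb2, its mitochondrial relative, differed by 2.69 ± 1.12 (edgeR adjusted p = 0.535) and by 0.49 without that library. Ccs, the copper chaperone of superoxide dismutase, had 128, 116 and 113 against 88.2, 103 and 78 CPM, with no overlap (-0.40 ± 0.17, edgeR adjusted p = 0.535).

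The list of NADPH sources beside G6pdx also held enzymes of the same pathways that do not themselves make NADPH (Pgls, Tkt, Taldo1, Rpia, Rpe and Shmt2). The list was mixed, with 8 of 14 above 0 (median 0.06). By edgeR 1 was higher and 1 lower at an unadjusted p under 0.05, shares near the 5.45% and 3.81% of all genes, and 0 passed after adjustment. The higher one was Me1. The lower one, Shmt2, of mitochondrial folate metabolism, had 380, 316 and 302 against 166, 184 and 238 CPM. Idh1, the cytosolic NADP-dependent isocitrate dehydrogenase, had 133, 103 and 130 CPM in vehicle against 146, 244 and 146 CPM in GSK3326595 (log2 difference 0.55 ± 0.26, edgeR adjusted p = 0.561). Its mitochondrial counterpart Idh2 had 328, 287 and 254 against 259, 187 and 170 CPM (-0.50 ± 0.22, edgeR adjusted p = 0.55). The groups did not overlap for Idh1 and overlapped for Idh2.

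Around Hmox1, 9 of 14 genes of heme and iron handling had log2 differences above 0 (median 0.17), with 1 higher at an unadjusted p under 0.05 by edgeR, a share near the 5.45% of all genes, and 0 after adjustment. That gene was Blvrb, biliverdin reductase B, with 14.8, 15.6 and 19.8 CPM in vehicle against 25.6, 34.9 and 21.1 CPM in GSK3326595 (0.70 ± 0.25, edgeR adjusted p = 0.522). Its groups did not overlap. Slc48a1, a heme transporter, differed by 0.56 ± 0.28, Ppox, of heme synthesis, by 0.33 ± 0.25, and Alas1, the first enzyme of heme synthesis, by 0.67 ± 0.58, or by -0.32 without GSK3326595 replicate 2.

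Genes driven by ATF4, the stress factor that shares Slc7a11 and other targets with NRF2, were below 0 in 10 of 15 (median -0.21), where 53.1% of all genes were above 0. By edgeR 3 were lower and 0 higher at an unadjusted p under 0.05 (3.81% and 5.45% of all genes), and 0 passed after adjustment. Ddit4, an inhibitor of mTORC1 signalling, had 64, 107 and 20.6 CPM in vehicle against 14.9, 19.2 and 18.8 CPM in GSK3326595 (log2 difference -1.86 ± 0.55, edgeR adjusted p = 0.491). Psat1, of serine synthesis, had 784, 597 and 524 against 331, 219 and 428 CPM (-0.96 ± 0.30, edgeR adjusted p = 0.499). Trib3, a pseudokinase that feeds back on ATF4, differed by -1.99 ± 0.70 and Asns, asparagine synthetase, by -0.33 ± 0.16 (edgeR adjusted p = 0.522 and 0.587). For Ddit4, as for Maff, Mafg and Osgin1, vehicle replicate 3 lay nearest to the GSK3326595 libraries.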

How the data were processed

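Total RNA of liver tumors was made into stranded libraries, per the labels' protocols. The authors deposited unscaled expected counts per gene. The submitters' processing notes name RSEM, STAR, cutadapt, Picard and the build mm10, with no versions, and no source used here names the annotation. Since 12.3% of values were not whole numbers (tolerance 0), all were rounded.

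Genes were kept by filterByExpr (minimum count 10), scaled by TMM and tested two-sided with edgeR 4.0.16 in R 4.3.3 over 17012 genes (common biological coefficient of variation 0.409; threshold 0.05), 3 libraries against 3. Standard errors (SE) were derived from the F statistic. DESeq2 1.42.0 and limma 3.58.1 (voom) were alternatives, with other scalings and filters, a replicate block and each library left out. The edgeR, DESeq2 and limma-voom fits were tested on simulated counts. Coordinates (1-based) and exon lengths came from GENCODE M21 of the same build (47224 of 47643 IDs matched), promoters from RefSeq.

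The 10 genes and all gene lists were chosen with earlier results of these data known. The 10 genes were always named, and from each other list up to 4 genes of smallest p; for Nqo1, the 5 genes nearest in pattern were added. A planned search of the NRF2 protein for its KEAP1-binding motifs was not run, as no protein sequence was used here. The text names Prmt5 as the drug's target.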

Additional observations from a re-analysis of the deposited data

How the results depend on the processing

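By edgeR 0 genes were called in either direction under each scaling and filter, with a block for replicate and with any library left out, and 0 by limma-voom. DESeq2 called 186 in the higher and 100 in the lower direction, and the cause was not tested. An unadjusted p under 0.05 was reached by 927 higher and 648 lower genes: 1547 were higher with no filter on low counts (more genes tested), 430 lower with total counts alone (median log2 difference of all genes 0.12, against 0.03), and 347 to 1629 higher and 241 to 961 lower over the left-out libraries. Of the 10 NRF2 genes, 0 became 1 higher with no filter and by DESeq2 (Gclc in both), and 0 to 2 over the left-out libraries. The 7 further targets higher became 4 by limma-voom and 1 to 14 over the left-out libraries, and the 1 lower became 1 to 6. For the regulators these counts were 0 to 1 and 1 to 2, with a median from -0.21 to -0.03. Log2 differences changed sign by limma-voom for Nqo1 (-0.04) and G6pdx (-0.03). Over the left-out libraries they ran from -1.11 to 1.06 for Nqo1, -0.02 to 0.24 for Gclm, -0.03 to 1.33 for Hmox1, -0.09 to 0.39 for Slc7a11, -0.30 to 0.35 for G6pdx, -0.25 to 1.45 for Msrb1, -0.24 to 1.08 for Cat and -0.32 to 1.05 for Alas1. Nfe2l2, Keap1, Gclc, Txnrd1 and Srxn1 kept their sign under every alternative. With at least 1 CPM in 3 libraries Nqo1 and Slc7a11 were not tested. Nqo1 and Slc7a11 had the fewest reads of the 10 genes, 6 to 63 and 13 to 24 per library; the part of depth in their errors was not tested.

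Whether the replicate numbers pair the libraries could not be decided with 3 libraries per group. Deviations from the group means correlated at -0.07, 0.07 and 0.32 for numbers 1, 2 and 3. Between libraries of unlike numbers these correlations ran from -0.43 to 0.32. With the replicate block 4 further targets and 0 regulators were higher at an unadjusted p under 0.05, Nqo1 was at -0.07 and G6pdx at -0.03.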

Other observations

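The glutathione S-transferases, which conjugate glutathione to electrophiles and are classical NRF2 targets in rodent liver, were mostly highest in 1 library. Gsta3 had 127, 113 and 105 CPM in vehicle tumors against 90.3, 456 and 50.4 CPM in GSK3326595 tumors, and Gstm1 had 151, 148 and 152 against 83.6, 362 and 84.3 CPM. In both genes GSK3326595 replicates 1 and 3 lay below all vehicle libraries and replicate 2 above them. The microsomal transferase Mgst1 was also highest in replicate 2, with 811 CPM against 156 to 229 CPM elsewhere, and Gstp1 was highest in GSK3326595 replicate 1 (422 CPM, against 264 to 371 CPM elsewhere). By edgeR their adjusted p were 0.799 for Gsta3, 0.947 for Gstm1, 0.655 for Mgst1 and 0.747 for Gstp1. Gpx1, the main cytosolic glutathione peroxidase, had 108, 132 and 119 CPM in vehicle against 138, 508 and 136 CPM in GSK3326595, with no overlap (log2 difference 1.12 ± 0.54, edgeR adjusted p = 0.571). These genes were chosen after their values were seen.

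The levels of markers of other cells are given as values. Stellate and fibroblast markers summed to 137, 260 and 567 CPM in vehicle against 593, 748 and 806 CPM in GSK3326595. Of their 10 log2 differences 9 were above 0 (median 0.92), where 53.1% of all genes tested were. Endothelial markers summed to 107, 171 and 184 against 250, 267 and 135 CPM (median 0.58 over 10 genes). Of 12 T cell markers 8 passed the filter on low counts, which markers high in 1 group alone can pass. Some of the 8 did so. Cd6 had 5, 3 and 2 counts in vehicle against 27, 44 and 15 in GSK3326595, and Cd2 had 6, 9 and 7 against 78, 54 and 20. The counts of T cell markers below are therefore partly set by the filter and are no support for a difference. All 8 were higher in every GSK3326595 library than in any vehicle library (6.72% of all genes) and had an unadjusted p under 0.05 by edgeR (5.45% of all genes), with a median log2 difference of 2.57. DESeq2 called 7 of the 8 higher after adjustment (1.1% of all genes). The median was 0.55 over the 5 cholangiocyte markers tested and -0.25 over the 6 erythroid markers tested. By edgeR 0 genes of these lists passed after adjustment, and DESeq2 called 0 in the lists other than T cell markers.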
